A study of Mus musculus with 3 samples.

Results

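The 43 genes that encode the subunits of RNA polymerase II and of the Mediator complex were followed in RNA bound to chromatin of mouse macrophages. They were chosen by name, as every protein-coding gene of the GENCODE M21 annotation called Polr2 plus a letter from a to m, or Med plus a number with or without a final l. The rule gave 13 polymerase genes and 30 Mediator genes, of 22028 protein-coding and 55536 annotated genes in all. Macrophages were grown from bone marrow of C57BL/6J mice and are primary cells with no transgene or deletion named in the labels. They had been given Lipid A, the part of bacterial lipopolysaccharide sensed by the receptor TLR4, at 100 ng/ml. This first exposure lasted 12 h and was followed by 12 h after washing and by 25 min of Lipid A at 100 ng/ml again. Ribosome-depleted total RNA of the chromatin fraction was sequenced in 3 libraries, biological replicates 1, 2 and 3 of this one treatment. The values below therefore describe levels within 1 state and their spread over 3 libraries, and no untreated cells were analysed here.

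RNA polymerase II makes the messages of all protein-coding genes. Mediator is a large assembly of head, middle and tail modules around a scaffold, and it links DNA-bound activators to the polymerase at promoters. A separate kinase module binds Mediator reversibly and hinders its contact with the polymerase. In macrophages, TLR4 signals raise transcription of inflammatory genes by bringing both assemblies to their promoters and enhancers. What was measured here is the RNA of the genes for these proteins, not the proteins or their binding.

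The libraries held 13502401, 17848798 and 17824176 expected counts over annotated genes in replicates 1 to 3. The 43 genes took 24647, 27187 and 27683 of them, or 0.183%, 0.152% and 0.155%. Their summed level was 618, 615 and 551 TPM (a level of transcripts per unit of length, scaled to the same total in each library). A ribosomal RNA locus on chromosome 17 took 11.1%, 31.8% and 24.8% of the counts, and starting RNA was 1 µg, 250 ng and 500 ng, both in the order of replicates 1 to 3. All 10 macrophage markers examined were at 1 TPM or more in each library, with a median log2(TPM + 1) of 6.59 ± 0.22 (SD, n = 3). None of 5 T cell, 5 B cell, 5 neutrophil or 5 fibroblast markers reached that level, and 1 of 5 erythroid markers did, Alas2, at 9.25 TPM. Coordinates are those of GRCm38 (mm10). All errors are SDs over the 3 libraries (n = 3) unless stated otherwise.

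Promoter sequence was looked up for the members because their levels spread widely within 1 complex. RefSeq starts on GRCm38.p6 were matched by symbol to 36 of the 43 genes, with 42 start sites. Of these genes, 12 had a RefSeq start within 10 bases of the start of the annotated gene. Shown here are the 120 bases upstream of that start for the 3 of those 12 with the highest mean TPM and the 3 with the lowest, 5′ to 3′ on the gene's strand. Capitals mark the GC box GGGCGG or its reverse complement CCGCCC, the letters bound by Sp1-family factors, and the TATA box TATAAA. The high members are Polr2a at chr11:69758634-69758753 (minus strand), Med13 at chr11:86357597-86357716 (minus strand) and Med20 at chr17:47611465-47611584 (plus strand). The low members are Med31 at chr11:72215593-72215712 (minus strand), Med9 at chr11:59948094-59948213 (plus strand) and Med18 at chr4:132463922-132464041 (minus strand).
Polr2a: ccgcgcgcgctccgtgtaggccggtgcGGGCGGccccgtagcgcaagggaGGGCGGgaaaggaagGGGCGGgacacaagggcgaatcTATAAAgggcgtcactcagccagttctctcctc
Med13: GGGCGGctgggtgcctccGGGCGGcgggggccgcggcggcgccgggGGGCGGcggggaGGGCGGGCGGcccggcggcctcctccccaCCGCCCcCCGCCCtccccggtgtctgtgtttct
Med20: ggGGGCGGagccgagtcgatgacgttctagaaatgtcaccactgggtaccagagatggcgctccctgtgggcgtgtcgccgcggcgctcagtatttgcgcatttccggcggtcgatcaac
Med31: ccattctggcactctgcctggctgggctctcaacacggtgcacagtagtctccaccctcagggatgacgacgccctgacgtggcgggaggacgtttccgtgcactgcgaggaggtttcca
Med9: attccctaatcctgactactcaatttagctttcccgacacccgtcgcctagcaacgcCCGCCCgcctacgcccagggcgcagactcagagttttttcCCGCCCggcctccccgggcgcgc
Med18: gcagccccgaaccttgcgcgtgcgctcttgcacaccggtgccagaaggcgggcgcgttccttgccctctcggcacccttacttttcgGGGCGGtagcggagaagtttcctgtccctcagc
The Polr2a stretch held both a GC box and a TATA box, the Med31 stretch held neither, and the other four held a GC box without a TATA box. Thus a GC box stood upstream of high and of low members alike.

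Over the 250 bases upstream of each start, searched on both strands, a GC box was found in 64.3% of the 42 member windows. It was in 32.7% of the 32851 windows of all genes and in 57.6% of the 9940 windows of detected protein-coding genes. The ETS-family letters CCGGAAG were in 19.0% of member windows, against 6.91% of all windows and 15.1% of detected ones. The letters GCGCATGC, the core of the NRF1 site, were in 14.3% of member windows, against 2.26% of all windows and 4.66% of detected ones. They lay upstream of 5 members, namely Polr2b, Polr2j, Med4, Med15 and Med17. The CCAAT box was found in 35.7% of member windows, close to the 33.8% of all windows and 35.0% of detected ones. TATAAA was in 11.9% of member windows, 12.4% of all windows and 6.33% of detected ones, and upstream of 5 members, Polr2a, Polr2c, Med7, Med16 and Med28. AAGATGG, part of the YY1 site, was in 9.52% of member windows against 4.49% of all windows and 4.60% of detected ones. A match describes letters in a window and is not a measured binding site.

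Of the 43 members, 37 were detected, meaning 1 TPM or more in each of the 3 libraries. The share over all protein-coding genes was 44.0%. Detected members were 10 of 13 polymerase and 27 of 30 Mediator genes. The 6 others were Polr2d, Polr2h, Polr2l, Med12l, Med30 and Med31, and each of them had counts in every library. In the authors' second quantification (described below) Polr2h, Med12l, Med30 and Med31 reached 1 TPM in every library. Med9, detected here, did not reach it there in replicates 2 and 3. Mean levels reached 5 TPM for 30 members, 10 TPM for 17, 20 TPM for 8, 50 TPM for 2 and 100 TPM for 1, and 9 members stayed under 2 TPM. The lowest members to reach 5, 10 and 20 TPM, Polr2f, Polr2c and Med8, stood at percentiles 67.8, 77.0 and 85.8 of all protein-coding genes. Among detected protein-coding genes they stood at percentiles 26.9, 47.7 and 67.7. The median of mean levels was 6.65 TPM over all 43 members and 11.0 TPM over detected protein-coding genes. The members include those not detected, so these medians are of unlike sets and are not directly comparable. RNA came from many cells together, so fewer cells with a message and less message per cell cannot be told apart.

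**Figure D1:**
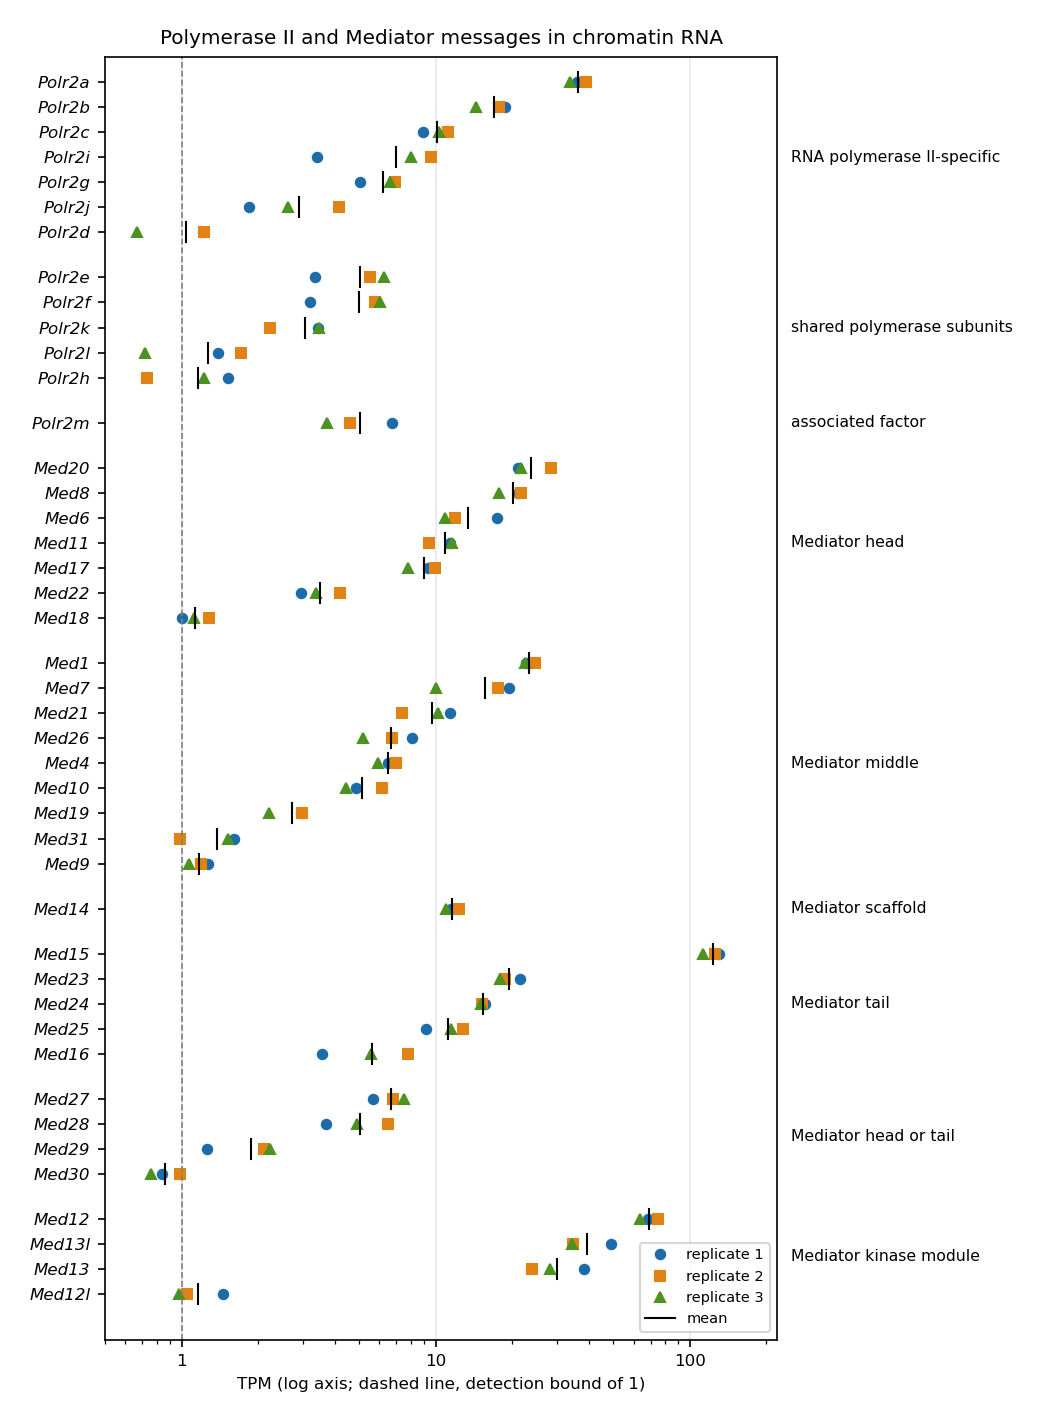
Level of each of the 43 members in TPM (horizontal log axis), by complex part and, within a part, by falling mean. Symbols are the 3 libraries, the short black line is their mean and the dashed line is 1 TPM. Over all transcripts, Med15, between 113 and 131 TPM, stands above the other members in every library, and Med12 follows between 63.8 and 75.2 TPM.

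Among the polymerase genes, those of the catalytic subunits led. Polr2a (chr11:69733997-69758637, minus strand) encodes the largest subunit, which carries the active site and the C-terminal repeat domain, and it had 36.0, 39.1 and 33.6 TPM in replicates 1 to 3 (mean 36.2 ± 2.73). Polr2b (chr5:77310147-77349324, plus strand) encodes the subunit that closes the active centre with it, and had 18.8, 17.7 and 14.4 TPM (16.9 ± 2.28). In every library Polr2a lay above Polr2b, and Polr2b above each other polymerase gene. The place of Polr2b rests on retained_intron transcripts: its protein_coding transcripts had 5.83, 4.52 and 5.03 TPM, and in each library 1 or more of Polr2g, Polr2i and Polr2m lay above that. Over all transcripts, Polr2a and Polr2b together made up 52.8% ± 4.43 of the summed TPM of the 13 polymerase genes.

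The remaining polymerase II-specific subunits were lower. Polr2c, whose product starts assembly by pairing with that of Polr2j, had 8.93, 11.2 and 10.3 TPM (10.1 ± 1.14). Its partner Polr2j had 1.85, 4.18 and 2.63 TPM (2.89 ± 1.19). Over all transcripts the ranges of these partner genes did not overlap. With protein_coding transcripts alone they did, with 3.59, 4.26 and 4.82 TPM for Polr2c and 1.85, 4.18 and 2.64 TPM for Polr2j. Polr2c is also uncertain because 14.7% of its 31-base stretches occur in other genes, among them processed pseudogenes. Polr2g and Polr2d encode the stalk, a pair of subunits that reaches out from the core and touches the emerging RNA. Polr2g had 5.04, 6.92 and 6.59 TPM (6.18 ± 1.00), and Polr2d (chr18:31789159-31796701, plus strand) had 1.21, 1.23 and 0.67 TPM (1.04 ± 0.318). The ranges of Polr2g and Polr2d did not overlap, but Polr2d rested on 13, 15 and 7 counts. The exact Poisson 95% interval for its 7 counts in replicate 3 is 2.81 to 14.4, and covers counting error only. Polr2i, a small zinc-binding subunit known in yeast for proofreading and start site choice, had 3.41, 9.55 and 7.98 TPM (6.98 ± 3.19). Its replicate 1 value lay below both others and rested on 15 counts, beside 26 and 33 in replicates 2 and 3.

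A further 5 subunits are shared with RNA polymerases I and III. Polr2e, which helps to grip the downstream DNA, had 3.35, 5.53 and 6.28 TPM (5.05 ± 1.52). Polr2f, at the base of the clamp, had 3.20, 5.78 and 6.05 TPM (5.01 ± 1.57). Both genes were lowest in replicate 1. The other 3 shared genes had lower means over all transcripts. This order changed with protein_coding transcripts alone, where Polr2e had the lowest mean of the 5, 0.707 TPM. Polr2f, at 1.56 TPM, then lay below Polr2k (3.05 TPM) but still above Polr2l (1.27 TPM) and Polr2h (1.17 TPM). Polr2k had 3.44, 2.22 and 3.48 TPM (3.05 ± 0.716), Polr2h 1.53, 0.73 and 1.23 TPM (1.16 ± 0.404), and Polr2l 1.39, 1.71 and 0.72 TPM (1.27 ± 0.505). Polr2k and Polr2h were lowest in replicate 2 and Polr2l in replicate 3. In the second quantification Polr2h had 1.64, 2.00 and 2.15 TPM and was lowest in replicate 1 instead. Counts were 14, 11 and 17 for Polr2k and 12, 7 and 11 for Polr2h. These 3 are uncertain too because processed copies share their sequence. Stretches of 31 bases that also occur in another gene made up 27.3% of the transcript positions of Polr2k, 27.3% of Polr2l and 14.6% of Polr2h. For Polr2k they lay in 5 pseudogenes and for Polr2l in Usp50 and a pseudogene. Polr2m encodes GDOWN1, which binds the polymerase tightly and blocks access of TFIIF, and it had 6.75, 4.62 and 3.73 TPM (5.03 ± 1.55).

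Grouped by role, the median log2(TPM + 1) was 3.05 ± 0.41 for the 7 polymerase II-specific genes and 1.97 ± 0.25 for the 5 shared ones. Over all 13 it was 2.14, 2.71 and 2.82 in replicates 1 to 3 (2.56 ± 0.36). The highest and lowest polymerase genes, Polr2a and Polr2d, differed 34.9-fold in mean TPM. The subunit genes of this enzyme thus covered a wide range on chromatin.

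Over all transcripts in the first quantification, the Mediator genes ranged further, 142-fold between Med15 and Med30. In the second quantification Med15 had 155 TPM and Med30 2.39 TPM, and Med9 was the lowest at 0.976 TPM. With protein_coding transcripts alone the lowest was Med31 at 0.357 TPM. Med15 (chr16:17651208-17732891, minus strand) encodes a tail subunit that activators contact, and had 131, 125 and 113 TPM (123 ± 9.10). This placed it at percentile 96.3 of the detected protein-coding genes. Med12 (chrX:101274030-101297465, plus strand), which activates the kinase of the kinase module, had 68.5, 75.2 and 63.8 TPM (69.2 ± 5.71), at percentile 91.8. Over all transcripts in the first quantification, the ranges of Med15 and Med12 overlapped neither each other nor that of any other member. Counting protein_coding transcripts alone turned their order, with Med12 at 33.8, 37.1 and 34.3 TPM and Med15 at 26.4, 24.2 and 23.5 TPM, and the range of Med15 then overlapped that of Med13. In the second quantification the range of Med12, 55.9 to 65.0 TPM, overlapped those of Polr2a and Med13l. Over all transcripts, Med15 and Med12 together made up 38.9% ± 0.819 of the summed TPM of the 30 Mediator genes. Adding Med13l and Med13 brought the share to 52.9% ± 1.69.

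The kinase module had the highest median of all Mediator parts, 5.12 ± 0.30 on the log2(TPM + 1) scale, although 1 of its 4 genes was not detected. Med13l (chr5:118560679-118765438, plus strand) had 48.8, 34.8 and 34.4 TPM (39.3 ± 8.19). Its paralogue Med13 (chr11:86267033-86357602, minus strand), which tethers the module to core Mediator, had 38.3, 23.9 and 28.1 TPM (30.1 ± 7.38). The ranges of Med13l and Med13 overlapped, although Med13l was higher in each of the 3 libraries. With protein_coding transcripts alone the direction turned in each library, with 18.7, 16.3 and 16.5 TPM for Med13l and 29.1, 22.3 and 23.5 TPM for Med13. The other paralogue pair differed widely. Med12l (chr3:59005825-59318682, plus strand) had 1.45, 1.05 and 0.98 TPM (1.16 ± 0.254), beside 63.8 TPM or more for Med12. Med12l spans 312858 bases and overlaps P2ry14, P2ry13 and P2ry12, among others, on the opposite strand. P2ry14 was at 23.0 TPM, and how its reads bear on the Med12l value was not tested. Med13l overlaps 6 genes of the provisional class TEC at 11.0 to 26.6 TPM, 5 of them on its own strand, so its level is uncertain too. The 3 genes of the module's kinase and cyclin had a lower median, 3.28 ± 0.21. Cdk8, the kinase, had 33.3, 30.4 and 31.3 TPM (31.6 ± 1.46). Cdk19, the paralogous kinase, had 5.48, 3.85 and 3.47 TPM (4.27 ± 1.07), and Ccnc, their cyclin, 10.1, 7.29 and 8.98 TPM (8.79 ± 1.41).

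In the tail, the module that most activators touch, all 5 genes were detected, with a median of 4.03 ± 0.02 over all transcripts. Medians by module were not taken with protein_coding transcripts alone. On that scale mean levels were 24.7 TPM for Med15, 9.69 for Med23, 5.84 for Med25, 2.94 for Med24 and 2.76 for Med16. Below Med15 came Med23, a target of growth factor and MAP kinase signals through Elk1, at 19.4 ± 1.81 TPM. Med24 had 15.6, 15.3 and 15.1 TPM (15.3 ± 0.257). Its libraries lay close together on this scale but not in the second quantification (18.9 ± 2.22 TPM) or with protein_coding transcripts alone (4.79, 1.97 and 2.05 TPM). Med25, known as a target of the viral activator VP16, was at 11.1 ± 1.85 TPM. Med16 was the lowest of the tail with 3.58, 7.77 and 5.55 TPM (5.63 ± 2.10) and was lowest in replicate 1. Med14, the scaffold that joins head, middle and tail, had 11.5, 12.4 and 11.0 TPM (11.6 ± 0.715).

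The head, which contacts the polymerase, had all 7 genes detected and a median of 3.55 ± 0.09. Its extremes were binding partners: Med20 and Med18 form a dimer at the surface of the head. Med20 (chr17:47611582-47624418, plus strand) had 21.01, 28.3 and 21.7 TPM (23.7 ± 4.01). Med18 (chr4:132458731-132463921, minus strand) had 1.00, 1.28 and 1.12 TPM (1.13 ± 0.140), on 12, 15 and 14 counts. Over all transcripts in the first quantification, the pair thus differed 20.9-fold in mean TPM, and the ranges lay far apart. Only 17.2% of the TPM of Med20 came from protein_coding transcripts, which is 4.05 ± 0.719 TPM, and all of the TPM of Med18 did. The gap was smaller in the second quantification, with 23.1 ± 2.12 TPM for Med20 and 2.62 ± 0.438 TPM for Med18. Med20 also overlaps Gm20517 (7.12 TPM) on its own strand and shares 6.64% of its 31-base stretches with it. Med17, the architectural core of the head, had 9.33, 9.90 and 7.77 TPM (9.00 ± 1.10). The other head genes, Med8, Med6, Med11 and Med22, had means between 3.52 and 20.1 TPM.

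In the middle module 8 of 9 genes were detected, with a median of 2.82 ± 0.17. Med1, which binds nuclear receptors, had 22.7, 24.6 and 22.4 TPM (23.2 ± 1.16). Med9 was the lowest with 1.27, 1.19 and 1.07 TPM (1.18 ± 0.101), and Med31 was not detected at 1.61, 0.99 and 1.52 TPM (1.37 ± 0.335). Med1 thus stood well above Med9 and Med31 in every library. Med7 and Med21, which form a hinge between middle and head, were at 15.7 ± 4.94 and 9.64 ± 2.07 TPM. Med26, through which Mediator meets elongation factors, was at 6.65 ± 1.46 TPM, but an antisense gene on the opposite strand, Gm17435, was at 18.9 TPM. Med4, Med10 and Med19 had means between 2.72 and 6.46 TPM. The 4 metazoan subunits placed in head or tail had the lowest median of the Mediator parts, 2.04 ± 0.30. Med27 led them with 5.67, 6.76 and 7.52 TPM (6.65 ± 0.930), and Med28 and Med29 were at 5.03 ± 1.40 and 1.87 ± 0.531 TPM. Med30 had 0.84, 0.99 and 0.76 TPM (0.863 ± 0.117), on 9, 12 and 10 counts. It closed the list of all members over all transcripts in the first quantification.

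**Figure D2:**
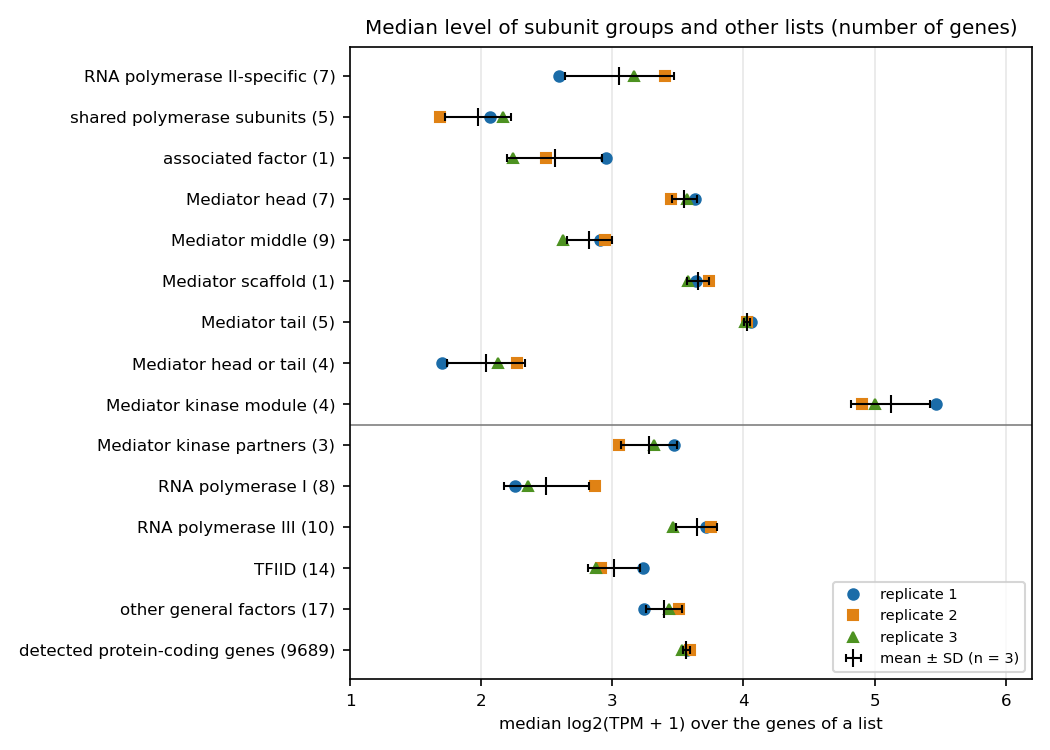
Median log2(TPM + 1) of each subunit group (above the grey line) and of other gene lists of transcription initiation and detected protein-coding genes (below it), with the number of genes in brackets. Symbols are the 3 libraries, and ticks with bars are their mean ± SD (n = 3). Over all transcripts, the kinase module lies at 5.12 and the tail at 4.03, above the 3.56 of detected protein-coding genes. The shared polymerase subunits lie at 1.97.

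Over all 30 Mediator genes the median log2(TPM + 1) was 3.35, 3.26 and 3.30 in replicates 1 to 3 (3.30 ± 0.05). The polymerase genes thus lay below the Mediator genes in each library, by -1.21, -0.55 and -0.48 on the log2 scale (polymerase minus Mediator, -0.75 ± 0.40). Detected protein-coding genes had a median of 3.56 ± 0.03. Beside that, medians over detected members alone were 2.71 ± 0.30 for polymerase and 3.52 ± 0.09 for Mediator genes. The difference between polymerase and Mediator genes is a description of 43 genes in 3 libraries and was not tested. Counting only the TPM of protein_coding transcripts brought it to -0.33 ± 0.06, with medians of 2.16 ± 0.11 for polymerase and 2.48 ± 0.06 for Mediator genes.

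Other genes of initiation were set beside the members from lists that hold no member. TFIID, which recognises core promoters, had 13 of 14 genes detected and a median log2(TPM + 1) of 3.01 ± 0.20. The genes of TFIIA, TFIIB, TFIIE, TFIIF and TFIIH, the factors that join the polymerase at the promoter, had 17 of 17 detected and a median of 3.39 ± 0.14. The TFIIH kinase gene Cdk7, whose product phosphorylates the C-terminal domain of the Polr2a protein, had 24.0, 21.9 and 21 TPM (22.3 ± 1.55). The polymerase II medians of 2.14 to 2.82 in the 3 libraries lay below those of both lists, which spanned 2.88 to 3.51. The Mediator medians, 3.26 to 3.35, lay within that span.

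Members with more exons tended to be higher on chromatin. Across the 43 members, Spearman's rho between mean TPM and the largest number of exons in a transcript was 0.61, and 0.67 with the second quantification. With the length of the gene it was 0.48, and with the longest coding transcript 0.49. Over the 9676 detected protein-coding genes with a coding transcript the value for exons was 0.37, and over all 9689 that for gene length was 0.22. The 43 members include those not detected, so these sets are unlike and the values are not directly comparable. These values describe the same 3 libraries and 1 annotation, and the genes are not independent replicates. Polr2a has up to 29 exons and Med12 up to 46, while Polr2l and Med9 have 2 each. Med12l went the other way, with 44 exons and 1.16 TPM.

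Chromatin RNA holds unfinished transcripts, so the transcript types behind each level were examined. In 14 of the 37 detected members the transcript with the most TPM was of another type than protein_coding, and over detected protein-coding genes this share was 35.0%. For Med15 it was a retained_intron transcript of 3118 bases, with 24.4% of the gene's TPM. For Polr2b it was a retained_intron transcript of 261 bases, with 48.8%. That share rested on 8.1, 7.42 and 5.26 counts in replicates 1 to 3, of 334, 306 and 362 for the gene. Polr2a was led by its coding transcript of 6740 bases, with 55.5%.

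The retained-intron share, the percent of a gene's TPM in transcripts annotated retained_intron, could be taken for 17 members at 5 TPM or more in each library. Its median over these members was 40.3%, 38.6% and 40.4% in replicates 1 to 3 (39.8% ± 1.01). Over the 4726 protein-coding genes that met the same terms it was 46.0% ± 2.42. The members spread widely around this median. Med20 had 84.6%, 83.7% and 80.3% (82.8% ± 2.26), Med24 69.3%, 86.5% and 86.4% (80.7% ± 9.90), and Med21 68.3%, 80.4% and 70.7% (73.1% ± 6.39). At the other end stood Med27 with 21.2%, 13.6% and 7.05% (13.9% ± 7.06), Med13 with 21.6%, 6.78% and 15.6% (14.7% ± 7.45), and Med17 with 16.3%, 14.4% and 13.4% (14.7% ± 1.47). The ranges of the high and the low members did not overlap, but they were picked by this same share, so the gap carries no weight.

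TPM gives weight to short transcripts, and the shares changed when expected counts were used. The median over the same 17 members was then 21.9%. Polr2b had 69.5% of its TPM but 7.32% of its counts in retained_intron transcripts. Med15 stayed high on both scales, with 71.5% of TPM and 68.2% of counts, and so did Med20 (88.3% of counts), Med24 (84.8%) and Med21 (90.7%). Reads over an intron not yet spliced and reads of a spliced message that keeps the intron cannot be told apart in these values.

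**Figure D3:**
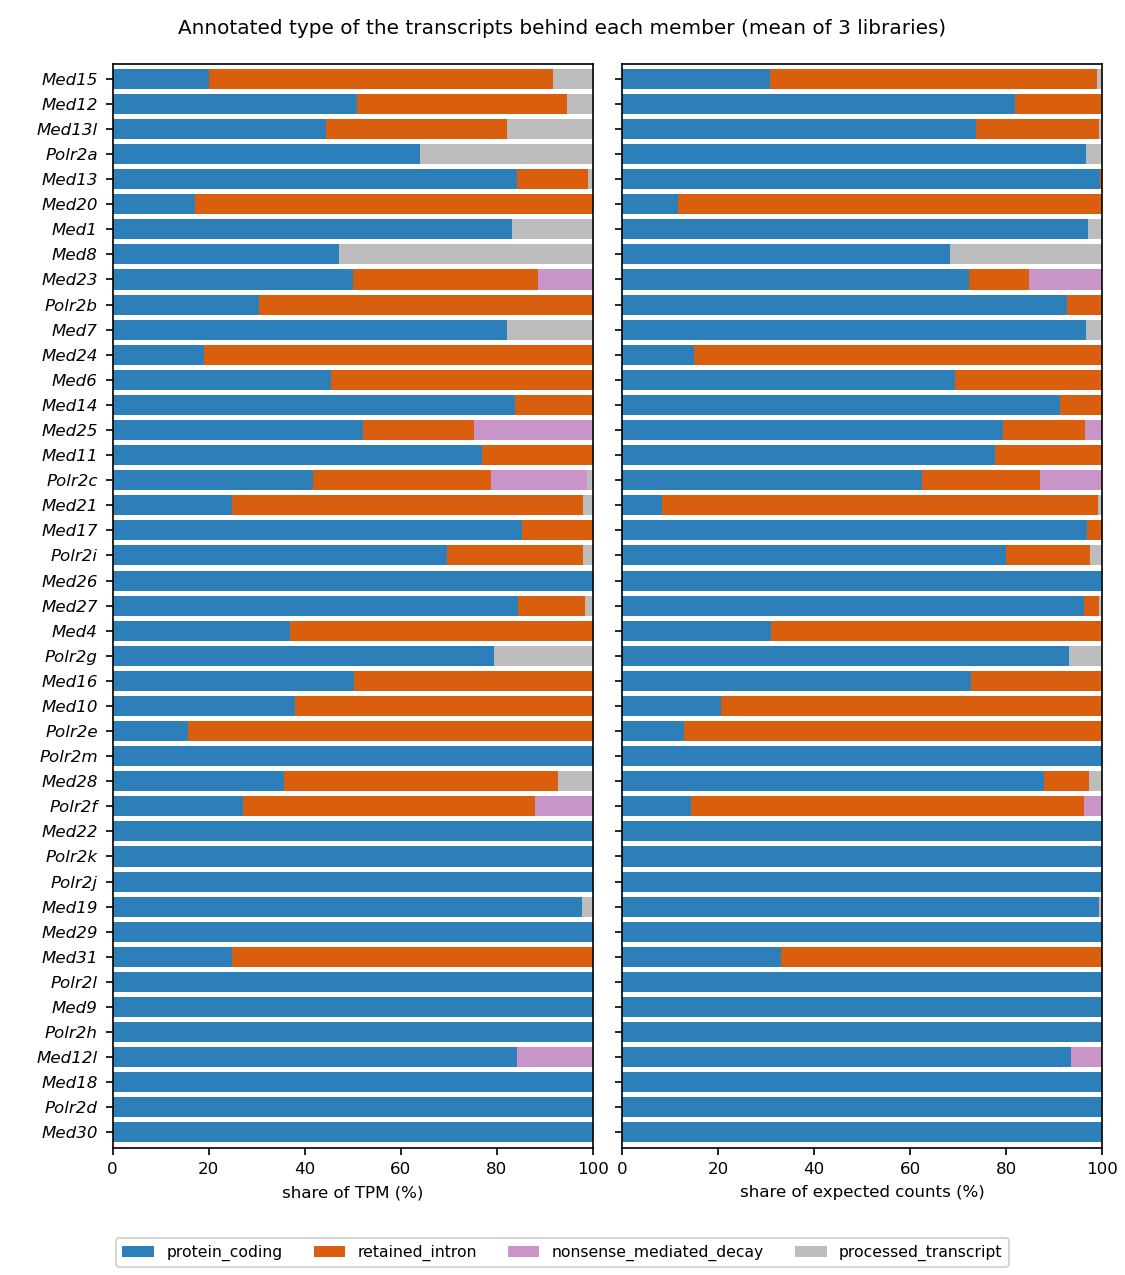
Share of each member's level by annotated transcript type, as percent of TPM (left) and percent of expected counts (right), mean of 3 libraries, members by falling mean TPM. Med20, Med24 and Med21 are mostly retained_intron on both scales, and Polr2b holds 69.5% of TPM but 7.32% of counts in that type.

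The second quantification, made from reads and a transcript index, ordered the members in much the same way (Spearman's rho 0.93 across 43 genes in the same libraries). Its mean TPM was over 1.5 times the first in 12 of 37 detected members, where 37.4% of detected protein-coding genes passed that ratio. The largest ratio was that of Med27, which had 30.6, 19.7 and 25.0 TPM in the second quantification (25.1 ± 5.42) and 6.65 ± 0.930 TPM in the first, a ratio of 3.77. Med30 followed with 2.76, then Med16 with 2.39 and Polr2k with 2.34. In the other direction Polr2i had a ratio of 0.640 and Med10 of 0.631. Both quantifications put the same transcript first in 20 of 37 detected members, and this share over detected protein-coding genes was 55.2%. Polr2a was among those that differed, since a processed_transcript of 586 bases led in the second with 43.0%.

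**Figure D4:**
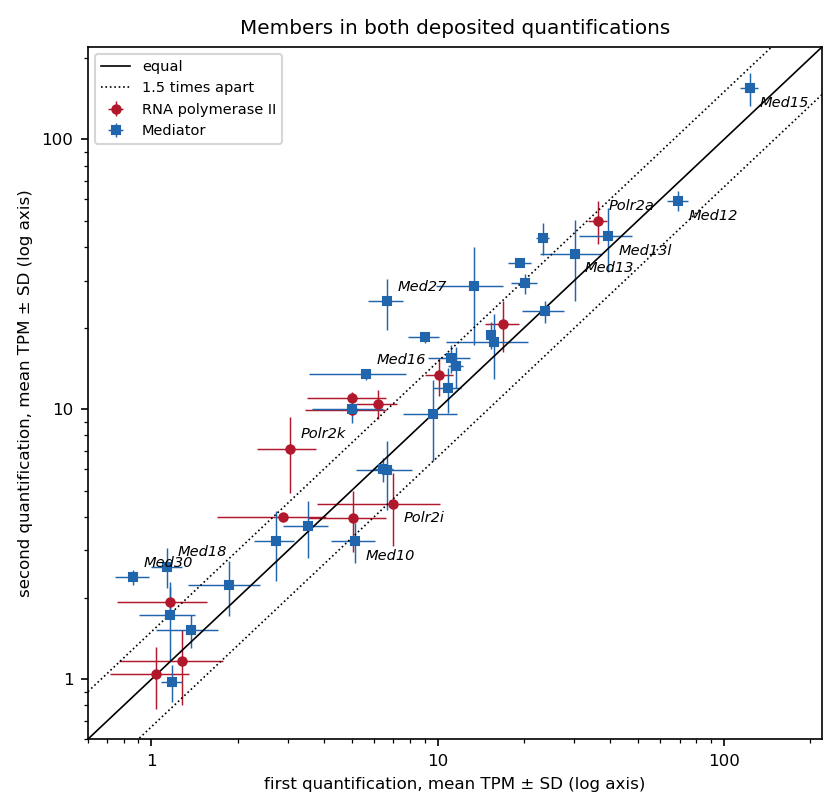
Mean TPM of each member in the first (horizontal) and second (vertical) quantification, both on log axes, with bars of 1 SD over 3 libraries. Circles are polymerase and squares Mediator genes, the solid line marks equal values and dotted lines a ratio of 1.5. Med27 lies farthest above the line with a ratio of 3.77, and Polr2i and Med10 lie below the lower dotted line.

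Spread between libraries was measured with edgeR as the biological coefficient of variation (BCV), the spread beyond counting noise, fitted over 14193 genes. The filter on low counts left 40 members and dropped Polr2d, Polr2h and Med31. Their median BCV was 0.200, against 0.197 over protein-coding genes. It was 0.212 for the 11 polymerase and 0.198 for the 29 Mediator genes fitted. The most variable members were Med10 (0.296), Polr2l (0.274) and Polr2f (0.266). Med10, a middle subunit, had 4.86, 6.13 and 4.42 TPM on 89, 171 and 70 counts, highest in replicate 2. In the second quantification Med10 had 3.65, 2.62 and 3.45 TPM and was lowest in replicate 2 instead. Its level is uncertain, since 79.5% of its counts lay in retained_intron transcripts and Gm26819 (3.26 TPM) overlaps it on the opposite strand. Polr2a (0.163), Med15 (0.167) and Med12 (0.168) were the steadiest. With 3 libraries, single BCV values are drawn strongly toward those of genes with similar counts.

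The libraries also differed in which members were low or high. Of the detected members, 14 of 37 had their lowest TPM in replicate 1, against 34.1% of detected protein-coding genes, and 12 of 37 their highest, against 41.6%. More members, 19 of 37, were lowest in replicate 3, among them 16 of 27 Mediator genes, and 19 of 37 were highest in replicate 2. Shares over detected protein-coding genes were not taken for replicates 2 and 3, so these counts are not read as particular to the members. All protein-coding genes together summed to 297805, 263925 and 253610 TPM in replicates 1 to 3, also lowest in replicate 3. Among polymerase genes 6 of 10 were lowest in replicate 1, namely Polr2c, Polr2e, Polr2f, Polr2g, Polr2i and Polr2j. In the second quantification Polr2g and Polr2j were highest in replicate 1 instead. On the log2 CPM scale, centred on each gene's mean, the polymerase genes had a median deviation of -0.21 in replicate 1, beside 0.10 and 0.05 in replicates 2 and 3. With no filter on low counts, which brought Polr2d and Polr2h back, it was -0.04 in replicate 1, and in the second quantification -0.10. Over all members fitted the medians were -0.02, 0.09 and -0.04. Replicate 1 had the most starting RNA and the smallest ribosomal RNA share, and the part of either in these deviations was not tested. Without replicate 1, the difference between polymerase and Mediator medians was -0.52 ± 0.05.

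**Figure D5:**
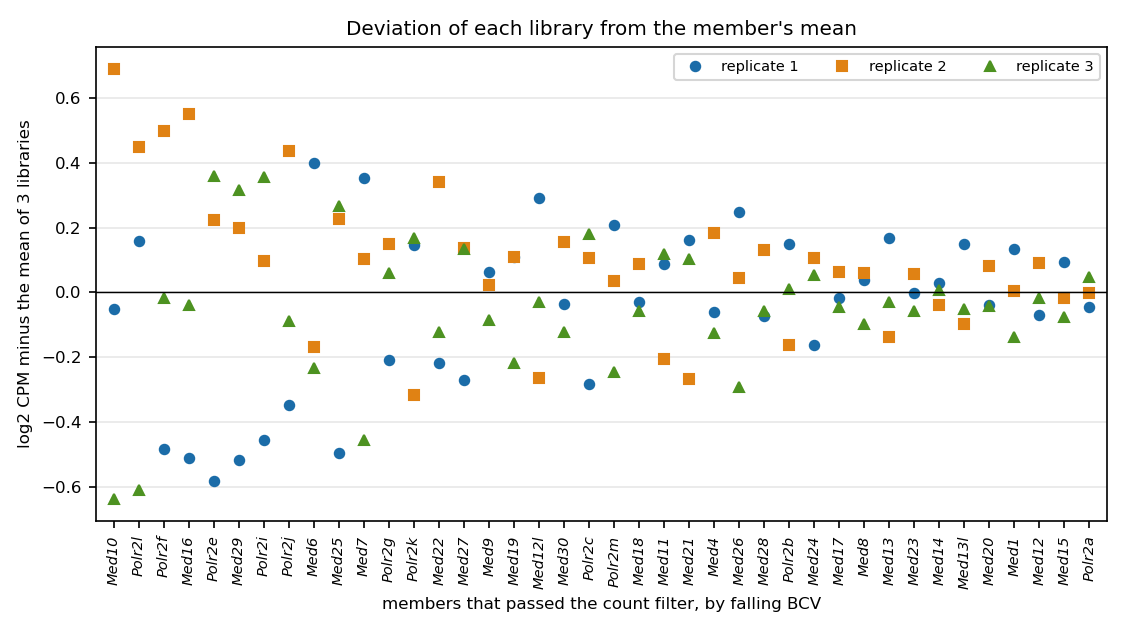
Log2 CPM of each library minus the member's mean over 3 libraries, for the 40 members that passed the filter on low counts, ordered by falling BCV from left to right. Symbols are the libraries. Polr2e, Polr2f, Polr2i and Polr2j, at the left, lie lowest in replicate 1, and Polr2a at the far right lies within 0.05 of its mean in each library.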

How the data were processed

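Ribosome-depleted total RNA of the chromatin fraction was analysed in 3 libraries of 1 condition. The labels number them as biological replicates but list the same donor for each, so the SDs measure the spread between these libraries, which may be technical. RSEM-style columns of the authors' gene table and first transcript table hold expected counts and TPM (also a posterior mean of it), per the file headers. Their other transcript table holds estimated counts and TPM under kallisto-style names, per the file headers, and was summed per gene. The deposited notes give mm10 and GENCODE M21. The sources used here give no aligner, version or strand setting, so overlapping and antisense genes are uncertain. Rows that name no annotated gene, such as spike-ins, held 1.75%, 0.396% and 0.239% of expected counts and were left out. A count of 0 allows up to 3 counts, or 0.222, 0.168 and 0.168 CPM.

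Members and gene lists were chosen with earlier results of these data known. With 1 condition there was no contrast and no test, so levels, counts and medians are descriptions. Every polymerase gene is named with values. So are the highest and lowest Mediator gene of each module, the paralogues, undetected members, and those with extreme BCV or retained-intron shares. Other members named were chosen after their values were seen. Medians used log2(TPM + 1), with a pseudocount of 1. Rounded expected counts were fitted with edgeR 4.0.16 (R 4.3.3) with filterByExpr, TMM and an intercept only, checked on simulated data. CPM were log2-scaled with a prior count of 2. Alternatives were the second quantification, posterior mean TPM, rescaling over protein-coding genes, other thresholds, DESeq2 1.42.0 size factors, libraries left out and, added after seeing the data, protein_coding transcripts alone and shares of counts. Promoter bases came from RefSeq. Tables and figures were made in Python 3.11.15 with pandas 2.3.3, numpy 2.4.6, matplotlib 3.10.9 and scipy 1.17.1.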

Additional observations from a re-analysis of the deposited data

How the results depend on the processing

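No paired analysis was possible because all 3 libraries belong to 1 group. The number of detected members was 37 as reported, 23 at 5 TPM or more in every library, and 37 to 40 with 1 library left out. It was 43 at 0.5 TPM or more in every library, and 43 with TPM rescaled over protein-coding genes. With posterior mean TPM it was 41, in the second quantification 40 and with protein_coding transcripts alone 34. The polymerase median of 2.56 was 2.99 in the second quantification, 4.24 with TPM rescaled over protein-coding genes and 2.16 with protein_coding transcripts alone, and 2.42 to 2.76 with 1 library left out. The Mediator median of 3.30 was 3.85, 5.08 and 2.48 under the same settings, 3.39 with posterior mean TPM, 3.17 with a pseudocount of 0.1, 3.52 over detected members alone and 3.28 to 3.33 with 1 library left out. Their difference of -0.75 was -0.33 with protein_coding transcripts alone and -0.88 to -0.52 with 1 library left out, and it was negative in every setting tried. The median BCV was 0.167 to 0.243 with 1 library left out. The members' median deviation in replicate 1, -0.02, turned to 0.00035 without the filter on low counts, so no direction is read from it. The median retained-intron share of 39.8% was 48.4% over 23 members at 1 TPM or more, 53.6% in the second quantification, 21.9% by expected counts, and 39.5% to 47.0% with 1 library left out. It was highest without replicate 1, when 21 members met the minimum in place of 17. For members near 1 TPM, counts of 7 to 19 in a library limit the precision, Med9 and Med12l having more. Polr2l had 26.7, 38.5 and 17.6 counts in replicates 1 to 3. Beyond the sets of members that these settings admit, the cause of the changes was not tested.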

Other observations

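The subunit genes of the other nuclear polymerases, which share 5 subunits with RNA polymerase II, were lists of their own. Of the RNA polymerase III genes, whose enzyme makes transfer RNA and other small RNA, 9 of 10 were detected, with a median log2(TPM + 1) of 3.71, 3.75 and 3.46 in replicates 1 to 3 (3.64 ± 0.16, SD, n = 3). Polr3a, its largest subunit, had 20.1, 27.1 and 20.6 TPM (22.6 ± 3.88), and Polr3c 25.3, 22.5 and 22.1 TPM (23.3 ± 1.71). The paralogues Polr3gl and Polr3g lay apart, at 25.2, 16.7 and 26.9 TPM for Polr3gl and 0.86, 1.03 and 2.60 TPM for Polr3g. Of the RNA polymerase I genes, whose enzyme makes ribosomal RNA, 7 of 8 were detected, with a median of 2.26, 2.87 and 2.36 (2.50 ± 0.33). Polr1a, its largest subunit, had 7.84, 9.69 and 10.1 TPM (9.21 ± 1.20). Over all transcripts in the first quantification, Polr1a thus lay below Polr3a, and Polr3a below the 36.2 TPM of Polr2a. There was no overlap between the libraries of the 3 genes. The protein_coding transcripts of Polr2a alone had 23.1, 22.6 and 23.4 TPM, and such values were not taken for Polr1a and Polr3a.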
